A study of Sus scrofa with 2 samples.

Results

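MHC class II molecules hold peptides from engulfed proteins on the cell surface, where helper T cells read them. Each molecule is a pair of an alpha and a beta chain, and in the pig these chains are encoded by the swine leukocyte antigen (SLA) genes. CD74, the invariant chain, fills the peptide groove until the molecule reaches an endosome, and SLA-DM, a pair of SLA-DMA and SLA-DMB chains, then helps to exchange the remnant of CD74 for a peptide. The transactivator CIITA switches these genes on, and dendritic cells, Langerhans cells of the epidermis and macrophages are the classical carriers in skin. In pigs, unlike in mice, vascular endothelium also carries class II without prior stimulation, and part of the T cells do.

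Of the 7 listed genes, 5 were found by symbol among the 31908 genes of the count matrices: SLA-DRA, SLA-DRB1, SLA-DQB1, SLA-DMA and SLA-DMB. These 5 SLA genes are the members described here, and their UMIs were also summed. CD74 was not listed by symbol but was matched by its Ensembl identifier ENSSSCG00000033262, so it is given separately and kept out of the sum. No feature was matched to SLA-DQA1, so it has no value here and is missing from the sum and from all shares of the sum. This does not mean that the cells lack it. In the RefSeq annotation of Sscrofa11.1 all of the SLA genes lie on chromosome 7: SLA-DRA (ENSSSCG00000001453) at chr7:24825037-24830650, SLA-DRB1 (ENSSSCG00000001455) at chr7:24901386-24914016, SLA-DQB1 (ENSSSCG00000001457) at chr7:24969034-24977238, SLA-DMB (ENSSSCG00000001469) at chr7:25119278-25125089 and SLA-DMA (ENSSSCG00000001470) at chr7:25133494-25137928. CD74 lies apart at chr2:151402210-151409924.

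The study compared fresh pig skin cells, which received no treatment, with cells frozen in 90% FBS + 10% DMSO and thawed, to learn whether freezing preserves the cells for droplet single-cell RNA sequencing. Both groups came from dorsal skin of male farm pigs, dissociated with the same enzyme kit and sorted to remove dead cells, and each group is 1 library. The extraction text of both samples describes freezing, while the titles and the treatment label mark 1 sample as fresh, and the sources used here leave it unstated if 1 animal gave both libraries. After the study's maxima for genes, UMIs and mitochondrial share, 2775 fresh and 4223 cryopreserved cells remained, with 32274985 and 36687009 UMIs and medians of 11017 and 7945 UMIs per cell. The libraries shared 6 cell barcodes. A UMI is a molecular tag that lets PCR copies of a transcript be counted once. With 1 library per group no test between conditions was possible, so every comparison describes these 2 libraries, and all intervals are exact 95% intervals for counting error only.

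The control regions of the class II genes carry short sequence boxes to which the factors that recruit CIITA bind: RFX at the X box and NF-Y at the Y box. The stretches that hold both boxes are shown here for the 5 SLA genes, in SLA-DRB1 and SLA-DMA only with a loosened X box core. Each was read from Sscrofa11.1 on the gene's own strand, and capitals mark the core of the X box and then the core of the Y box. The windows are chr7:24824943-24825021 on the plus strand for SLA-DRA and, on the minus strand, chr7:24914057-24914134 for SLA-DRB1, chr7:24977302-24977381 for SLA-DQB1, chr7:25137968-25138048 for SLA-DMA and chr7:25125115-25125193 for SLA-DMB.
SLA-DRA: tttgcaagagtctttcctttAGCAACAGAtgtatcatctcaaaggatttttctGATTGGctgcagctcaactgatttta
SLA-DRB1: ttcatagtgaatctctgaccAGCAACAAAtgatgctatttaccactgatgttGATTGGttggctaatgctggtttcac
SLA-DQB1: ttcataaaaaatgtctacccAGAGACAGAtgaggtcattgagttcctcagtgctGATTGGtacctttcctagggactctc
SLA-DMA: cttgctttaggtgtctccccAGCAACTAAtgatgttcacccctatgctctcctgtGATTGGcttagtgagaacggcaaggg
SLA-DMB: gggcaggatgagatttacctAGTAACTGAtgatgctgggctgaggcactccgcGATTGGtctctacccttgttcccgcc

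The windows were picked to hold the Y box core GATTGG 20 to 30 bases after an X box core, strict or loosened. The Y core in every window and a spacing in that range are therefore no independent result. Between the cores lay 24 bases in SLA-DRA, 23 in SLA-DRB1, 25 in SLA-DQB1, 26 in SLA-DMA and 24 in SLA-DMB. The X box core was searched as AGNNACNGA, which SLA-DRA, SLA-DQB1 and SLA-DMB held. SLA-DRB1 and SLA-DMA held it only with 1 letter loosened, AGNNACNNA, a form chosen after the sequences had been seen. Over 19559 RefSeq promoters of protein-coding genes, each 300 bases long (250 before and 50 from the start on), both strands were searched. The Y core matched in 3133 (16.02%) and the X core in 2776 (14.2%), and 394 (2.01%) held both. An X core followed on the same strand by a Y core after 20 to 30 bases was found in 11 promoters (0.0562%), and with the looser X core in 47 (0.240%), of which 25 lie on chromosome Y and 5 are the genes shown. In the same window the promoter of CD74 held neither the X nor the Y core, and that of SLA-DQA1 held the Y core but not the X core. These matches describe letters and are no evidence of binding.

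Cells were grouped into classes without the class II region genes and CD74, so the levels below were not used to form the classes. The names rest on marker genes, and 1 marker each is given below for some of the classes. Not every marker of a list was raised in the cells that took its name. The dendritic-like class described below was named on 8 of 12 markers found, and the T or NK-like cluster led by RHEX on 4 of 9. VWF, a product of vessel endothelium, reached 752 and 855 CPM (UMIs of the gene per 1000000 UMIs of the class), fresh and cryopreserved in turn, in the 201 and 270 endothelial-like cells. CD3E, a gene of the T cell receptor complex, had 1229 and 1509 CPM in the 145 and 254 T or NK-like cells. COL1A1 had 46771 and 55316 CPM in the 1215 and 1572 fibroblast-like cells. The 151 and 275 CD163/CD209 myeloid-like cells had C1QA at 5029 and 5669 CPM. CD207, the langerin gene of Langerhans cells, had 197 and 243 CPM in the 109 and 184 cells of the Langerhans or other dendritic class, called dendritic-like here, and no UMI in the myeloid-like or endothelial-like cells.

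The class II genes were highest in dendritic-like cells, then in CD163/CD209 myeloid-like cells and then in endothelial-like cells, in both libraries and for each of the 5 SLA genes and CD74. The summed SLA genes took 27768 CPM (interval 27515 to 28022) of the fresh and 32050 CPM (31798 to 32305) of the cryopreserved dendritic-like UMIs. In myeloid-like cells the sum was 6134 CPM (6007 to 6262) and 6314 CPM (6210 to 6418). Endothelial-like cells had 1956 CPM (1888 to 2027) and 2008 CPM (1930 to 2089). No other class was above 113 CPM.

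SLA-DRA, the alpha chain of the DR molecule, had 10204 CPM in fresh and 10922 CPM in cryopreserved dendritic-like cells, 2116 and 2014 CPM in myeloid-like cells and 613 and 564 CPM in endothelial-like cells. Its beta chain SLA-DRB1 followed the same order with 6107 and 7894 CPM, 1298 and 1400 CPM, and 502 and 555 CPM. For SLA-DQB1, the beta chain of the DQ molecule, the levels were 10874 and 12667 CPM, 2314 and 2524 CPM, and 739 and 809 CPM. Within a library none of these counting intervals overlapped between the 3 classes. The share of all genes set apart between these classes in the same way was not counted, so the lack of overlap does not distinguish the members. Similar copies of SLA-DRB1 and SLA-DQB1 in the pig genome were not searched for, and how reads from any such copies were counted was not tested. The levels of SLA-DRB1 and SLA-DQB1 may therefore be less certain than that of SLA-DRA.

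**Figure D1:**
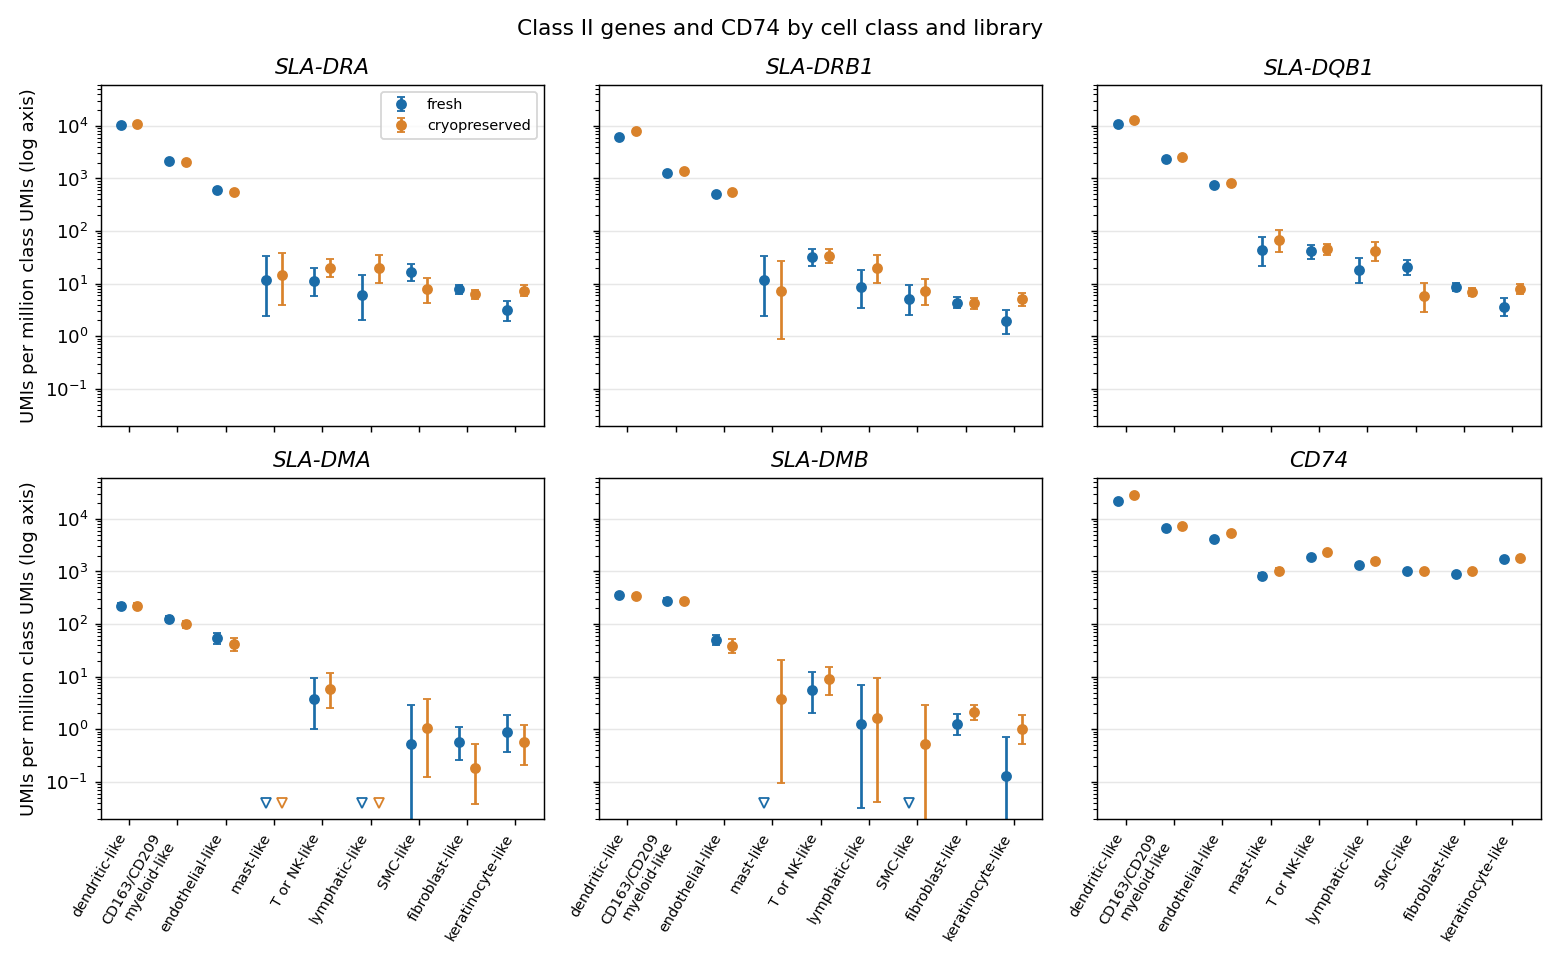
Level of each gene in 9 cell classes, as CPM on a log axis, for the fresh (blue) and the cryopreserved library (orange). Bars are exact 95% Poisson intervals and open triangles mark 0 UMIs. SLA-DRA ranged from 10922 CPM in cryopreserved dendritic-like cells to 3.10 CPM in fresh keratinocyte-like cells, while CD74 was at or above 816 CPM in all 9 classes.

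The DM genes, whose product loads peptides, differed less than SLA-DRA between dendritic-like and myeloid-like cells. SLA-DMB had 358 and 342 CPM in dendritic-like cells and 280 and 277 CPM in myeloid-like cells, a ratio of 1.28 (interval 1.13 to 1.45) in the fresh and 1.24 (1.11 to 1.38) in the cryopreserved library. For SLA-DMA the levels were 224 and 225 CPM against 125 and 98.6 CPM, and the ratios 1.79 (1.498 to 2.15) and 2.28 (1.94 to 2.70). The same ratio was 4.82 (4.64 to 5.01) and 5.42 (5.25 to 5.60) for SLA-DRA, so the interval of neither DM gene met that of the DR alpha chain. Between myeloid-like and endothelial-like cells SLA-DMB had the larger ratio, 5.64 (4.42 to 7.28) and 7.17 (5.34 to 9.83), against 3.45 (3.21 to 3.71) and 3.57 (3.30 to 3.87) for SLA-DRA and 2.34 (1.79 to 3.06) and 2.36 (1.74 to 3.26) for SLA-DMA. As a share of the summed UMIs, the DM genes made up 2.10% and 1.77% in dendritic-like, 6.61% and 5.94% in myeloid-like and 5.28% and 4.003% in endothelial-like cells.

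In endothelial-like cells the class II genes were found in most cells. At least 1 UMI of the 5 SLA genes was seen in 92.0% (interval 87.4 to 95.4%) of the fresh and 84.1% (79.2 to 88.2%) of the cryopreserved cells, at median depths of 6531 and 3958 UMIs. For comparison, fibroblast-like cells, a type that normally lacks class II, had such a UMI in 13.5% and 14.4% of cells at median depths of 12659 and 9959. After each cell was thinned to 1000 UMIs, which left out 5 endothelial-like cells of each library and 5 and 8 fibroblast-like cells, the shares were 65.3% and 60% against 2.07% and 2.17%. The summed level was 86.0 times (77.1 to 96.2) and 101 times (89.8 to 113) that of fibroblast-like cells.

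Leukocyte genes were low but present in the endothelial-like class, with PTPRC, which encodes the leukocyte antigen CD45, at 30.6 and 16.1 CPM and the complement gene C1QA at 31.9 and 4.82 CPM. CD163 and CD207 had no UMI there in either library. When every cell with a UMI of PTPRC, C1QA or C1QB was left out, 170 of 201 and 247 of 270 cells remained, and their level was 1820 and 1939 CPM. This filter does not remove every class II-rich leukocyte. Among dendritic-like cells, 7 of 109 fresh and 30 of 184 cryopreserved cells had no such UMI, and their class II level was 27205 and 25434 CPM. Of the 76 fresh and 68 cryopreserved endothelial-like cells with 10 or more class II UMIs, 17 and 9 had a UMI of these leukocyte genes. In the whole endothelial-like class 31 of 201 and 23 of 270 cells had one of these UMIs. COL1A1 stood at 91.1 CPM in fresh and 1303 CPM in cryopreserved endothelial-like cells, and its part in the class II level was not tested.

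The lymphatic-like cells, which line lymph vessels, were far below the blood vessel type. Their summed level was 34.6 CPM (22.99 to 50.01) and 83.5 CPM (62.0 to 110), so the endothelial-like level was 56.5 times (39.0 to 85.2) and 24.1 times (18.2 to 32.5) theirs. SLA-DMA had no UMI in them, which allows up to 3.71 and 5.01 CPM at 3 counts.

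**Figure D2:**
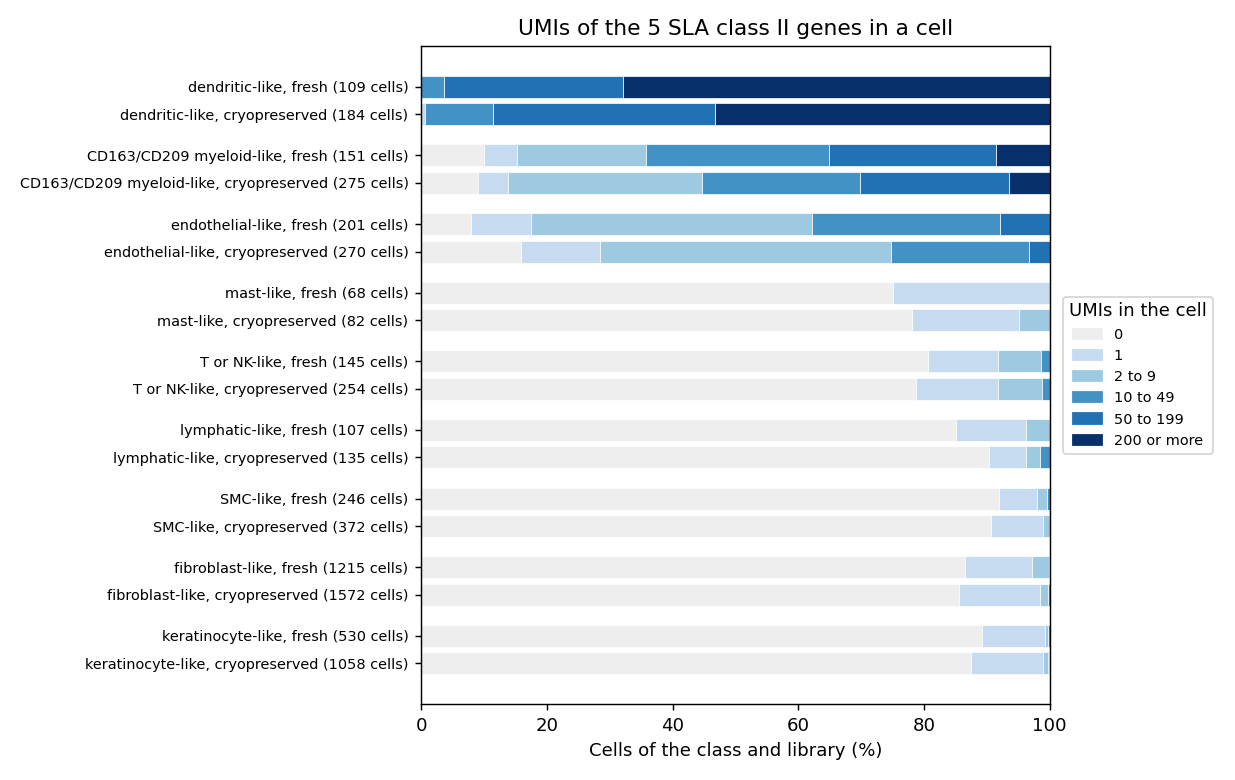
Share of cells by the number of UMIs of the 5 SLA class II genes that they held, for each class and library. All 109 fresh dendritic-like cells held 10 or more, 37.8% of fresh and 25.2% of cryopreserved endothelial-like cells did, and in the 6 lower classes most cells held none.

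The cells within a class differed widely. Fresh dendritic-like cells held between 23 and 1116 class II UMIs with a median of 367, and cryopreserved ones between 1 and 1175 with a median of 235. In myeloid-like cells the median was 18 and 14, the 90th percentile 192 and 159 and the highest cell 397 and 613, while 15 of 151 and 25 of 275 cells had none. Endothelial-like cells had medians of 6 and 4 and reached 188 and 95. The medians per cell were lower in the cryopreserved library in these 3 classes, where the depth per cell was lower as well, with medians of 14636 and 9412 UMIs in dendritic-like cells.

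T or NK-like cells had 94.0 CPM (76.5 to 114) and 113 CPM (96.3 to 133) of the summed genes, 4.13 times (3.28 to 5.17) and 5.69 times (4.67 to 6.91) the fibroblast-like level. The UMIs were few, 100 and 154, and the 5 cells with most of them held 59% and 50%. Without these cells 40.1 and 58.3 CPM remained, against 12.7 and 15.3 CPM in fibroblast-like cells without their 5 highest. These 5 are a larger part of 145 and 254 cells than of the 1215 and 1572 fibroblast-like cells. Median depth was 6512 and 4813 UMIs in T or NK-like cells, against 12659 and 9959 in fibroblast-like cells. The same count per cell would therefore give a higher CPM in T or NK-like cells, and the part of depth in the difference was not tested. No class II UMI was held by 80.7% and 78.7% of T or NK-like cells, against 86.5% and 85.6% of fibroblast-like cells. In thinned cells 7.59% and 7.48% had a class II UMI, against 2.07% and 2.17% of thinned fibroblast-like cells. Thinned mast-like cells had such a UMI in 8.06% and 5.06%, and thinned lymphatic-like cells in 4.67% and 4.48%. Without their 5 highest cells, mast-like cells had 49.4 and 51.6 CPM. The T or NK-like level is therefore not particular to that class. A cluster with 65 and 98 cells, led by GNLY, a gene of cytotoxic granules, IL17F and KLRK1, had 143 CPM (111 to 183) and 226 CPM (187 to 272). The cluster led by RHEX, BLK and CD3E, with 72 and 143 cells, had 71.6 CPM (50.1 to 99.1) and 45.7 CPM (31.5 to 64.2), and the 8 and 13 cells of the remaining cluster had 0 and 6 class II UMIs. These cluster levels were not recomputed without the 5 highest cells of the class, so few cells may decide the difference between the clusters.

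In T or NK-like cells SLA-DRA took a smaller share of the class II UMIs than in dendritic-like cells. It made up 12% (interval 6.36 to 20.02%) and 17.5% (11.9 to 24.5%) of them, against 36.7% (36.3 to 37.2%) and 34.1% (33.7 to 34.5%) in dendritic-like cells. SLA-DRB1 made up 34.0% (24.8 to 44.2%) and 29.9% (22.8 to 37.8%), against 22.0% and 24.6%, and the cryopreserved interval held the dendritic-like share. Since a few cells held so much of the T or NK-like UMIs, the shares were also taken without the 5 cells with most of them, an alternative added after the data had been seen. SLA-DRA then made up 1 of 41 UMIs, 2.44% (0.0617 to 12.9%), and 8 of 77, 10.4% (4.59 to 19.4%), against 36.4% and 33.7% in dendritic-like cells without their 5 highest. SLA-DRB1 made up 36.6% (22.1 to 53.1%) and 24.7% (15.6 to 35.8%), so its cryopreserved share was close to the dendritic-like 24.5%. In fibroblast-like cells SLA-DRA took 34.3% (29.4 to 39.4%) and 31.4% (26.4 to 36.7%), and in keratinocyte-like cells 32.0% (21.7 to 43.8%) and 33.8% (27.7 to 40.2%). These intervals held the dendritic-like shares. They also held the myeloid-like shares of 34.5% and 31.9% and the endothelial-like shares of 31.3% and 28.1%. The SLA-DRA share therefore does not tell these classes apart. The share of the DM genes did so in part. In fibroblast-like cells it was 8.08% (5.48 to 11.4%) and 11.6% (8.33 to 15.6%), intervals above the dendritic-like and endothelial-like shares. The myeloid-like share lay below the cryopreserved interval only. In keratinocyte-like cells the DM share was 10.7% (4.72 to 19.9%) and 7.26% (4.29 to 11.4%), intervals above the dendritic-like shares. The DM UMIs were few, 29 and 38 in fibroblast-like and 8 and 17 in keratinocyte-like cells. In mast-like cells 11 of 17 and 18 of 25 class II UMIs were SLA-DQB1, 64.7% (38.3 to 85.8%) and 72.0% (50.6 to 87.9%).

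The stromal and epidermal classes were at the low end. Fibroblast-like cells had 22.7 CPM (20.5 to 25.2) and 19.9 CPM (17.8 to 22.2), SMC-like cells, the smooth muscle type, 43.2 and 22.4 CPM, and keratinocyte-like cells 9.70 CPM (7.63 to 12.2) and 22.0 CPM (19.3 to 25.0). Few cells decided these values. A fresh SMC-like cell held 49 of 83 class II UMIs, a fresh fibroblast-like cell 93 of 359, a cryopreserved keratinocyte-like cell 66 of 234 and a cryopreserved lymphatic-like cell 20 of 50. Without the 5 cells with most class II UMIs, the level in SMC-like cells was 8.09 and 15.99 CPM, which turned the order of the libraries, and in fibroblast-like cells it was 12.7 and 15.3 CPM, which turned it as well. Keratinocyte-like cells then had 6.80 and 12.8 CPM. Lymphatic-like cells had 14.4 and 14.0 CPM, so there the libraries no longer stood apart. Among these low classes the intervals of neighbours in the order often overlapped, for example those of mast-like (38.5 to 106) and T or NK-like cells (76.5 to 114) in the fresh library, so no order is read from them.

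CD74 showed a smaller contrast between the classes. It had 21958 and 28975 CPM in dendritic-like, 6845 and 7159 CPM in myeloid-like and 4207 and 5302 CPM in endothelial-like cells, but also 1881 and 2394 CPM in T or NK-like, 1759 and 1827 CPM in keratinocyte-like and 879 and 1036 CPM in fibroblast-like cells. At least 1 CD74 UMI was present in 92.2% of fresh and 97.3% of cryopreserved fibroblast-like cells and in 97.2% and 98.4% of keratinocyte-like cells. Dendritic-like cells had 25.0 times (24.5 to 25.5) and 28.0 times (27.5 to 28.5) the fibroblast-like level of CD74, and 1221 times (1100 to 1358) and 1608 times (1442 to 1798) that of the summed SLA genes.

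For each UMI of the 5 SLA genes, dendritic-like cells held 0.791 and 0.904 CD74 UMIs, myeloid-like cells 1.12 and 1.13 and endothelial-like cells 2.15 and 2.64. The number was 20 (interval 16.4 to 24.7) and 21.1 (17.9 to 25.0) in T or NK-like cells, 38.6 (34.8 to 43.0) and 52.0 (46.6 to 58.1) in fibroblast-like cells and 181 (145 to 231) and 83.1 (73.1 to 94.97) in keratinocyte-like cells. Within a library the intervals of these 6 classes did not meet, but intervals of classes left out here met some of them. Lymphatic-like cells had 38.6 (26.6 to 58.4) and 19.0 (14.3 to 25.8), which met the fresh fibroblast-like and the cryopreserved T or NK-like interval. SMC-like cells had 23.5 (18.8 to 29.6) and 46.2 (34.2 to 64.1), which met the fresh T or NK-like and the cryopreserved fibroblast-like interval.

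**Figure D3:**
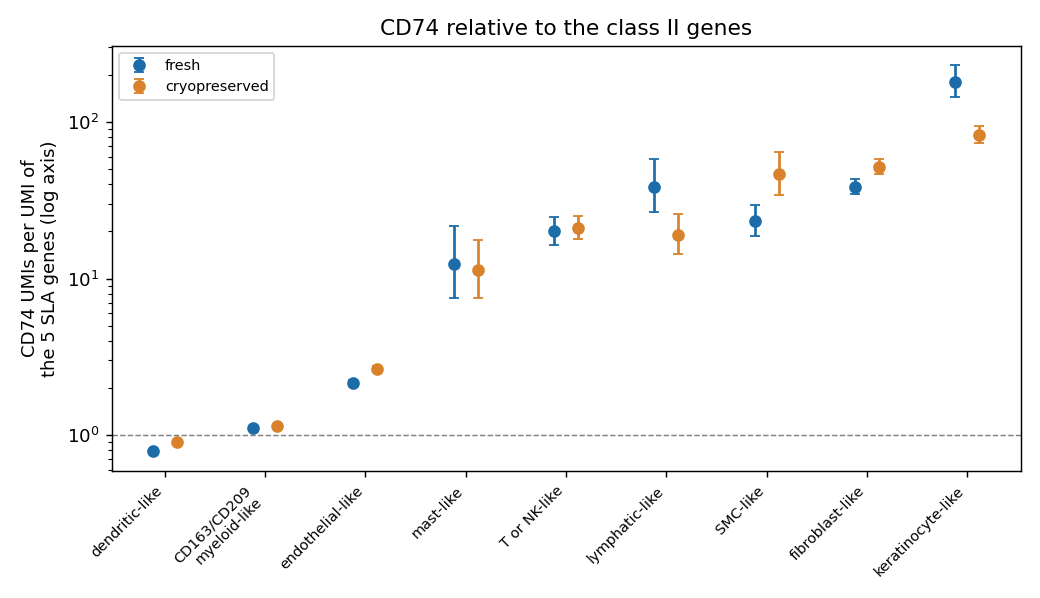
CD74 UMIs for each UMI of the 5 SLA genes, on a log axis, by class and library, with exact 95% binomial intervals turned into ratios. The dashed line marks equal numbers. Dendritic-like cells lie below the line at 0.791 and 0.904, and keratinocyte-like cells highest at 181 and 83.1.

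The dendritic-like and myeloid-like cells together, 719 in all, were clustered again without the class II genes and fell into 8 sub-clusters. The lowest class II level was in sub-cluster s1, C1Q macrophages led by CTSL and LYVE1, with 2795 CPM (2650 to 2947) in 38 fresh and 2086 CPM (2008 to 2167) in 125 cryopreserved cells. The other C1Q macrophage sub-cluster, s0, had 8708 CPM (8514 to 8905) in 101 and 9505 CPM (9263 to 9751) in 108 cells, 3.12 times (2.94 to 3.30) and 4.56 times (4.35 to 4.77) as much. LYVE1, a hyaluronan receptor found on a kind of resident macrophage, stood at 319 and 394 CPM in s1 and at 29.6 and 72.7 CPM in s0. SLA-DRA was 868 and 545 CPM in s1 against 2974 and 2765 CPM in s0, and CIITA was 12.1 and 18.9 CPM against 195 and 108 CPM. CD74 differed less, by 2.29 times (2.17 to 2.40) and 2.65 times (2.55 to 2.75), and SLA-DMB by 1.86 times and 1.85 times.

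This split of macrophages depended on how it was drawn. With cells of s0 and s1 divided at the median level of CTSL, a cathepsin, the lower part had 2.65 times (2.53 to 2.77) the class II level of the upper part in the fresh and 3.97 times (3.78 to 4.16) in the cryopreserved library. CTSL is a leading gene of s1, with 4793 and 4832 CPM there against 679 and 533 CPM in s0. This division is therefore no independent check of the split. When the same cells were clustered within each library alone, the cluster with most LYVE1 again had less class II in the cryopreserved library, where the remaining cells had 7.97 times its level. In the fresh library the order turned: the 60 cells of the cluster with most LYVE1, 27 of which came from s1, had 8053 CPM and the other 79 cells 4579 CPM. Both divisions were added after the data had been seen. The share of s1 among the cells of s0 and s1 was 27.3% (20.1 to 35.5%) in the fresh and 53.6% (47.0 to 60.2%) in the cryopreserved library.

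The MARCO myeloid sub-cluster s4, named for a scavenger receptor, had 9950 CPM (9436 to 10484) in 14 fresh and 18202 CPM (17756 to 18656) in 43 cryopreserved cells. In s4 CD209 had 0 and 1 UMIs, and C1QA 318 and 902 CPM. The Langerhans sub-cluster s2, with CD207 at 273 and 295 CPM and the migration receptor CCR7 at 992 and 1037 CPM, had 30290 and 35622 CPM of class II in 54 and 95 cells. Its name rests on 3 of 4 markers, of which 0 were among its 10 leading genes. FSCN1, a marker of the list for CCR7 dendritic cells, had 155 and 382 CPM in s2, so the name is uncertain. Sub-cluster s7, whose markers XCR1 and BATF3 belong to cross-presenting dendritic cells (cDC1), had 34010 and 32542 CPM in 9 and 5 cells. The 8 and 8 cells of s6, led by IL23A, had 34167 and 51082 CPM. They passed the naming rule as C1Q macrophages on 3 of 6 markers, with C1QA at 3805 and 4604 CPM. But CCR7 stood at 2221 and 1884 CPM in them, and no name is used for them here. Sub-cluster s3, which no marker list named, had 19061 and 24952 CPM in 25 and 57 cells. In s5, with 11 and 18 cells and COL1A1 at 10677 and 6957 CPM, the level was 18199 and 14156 CPM, and the sub-cluster was left unnamed for its collagen genes, although CD207 was higher in it than in s2, at 525 and 485 CPM.

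**Figure D4:**
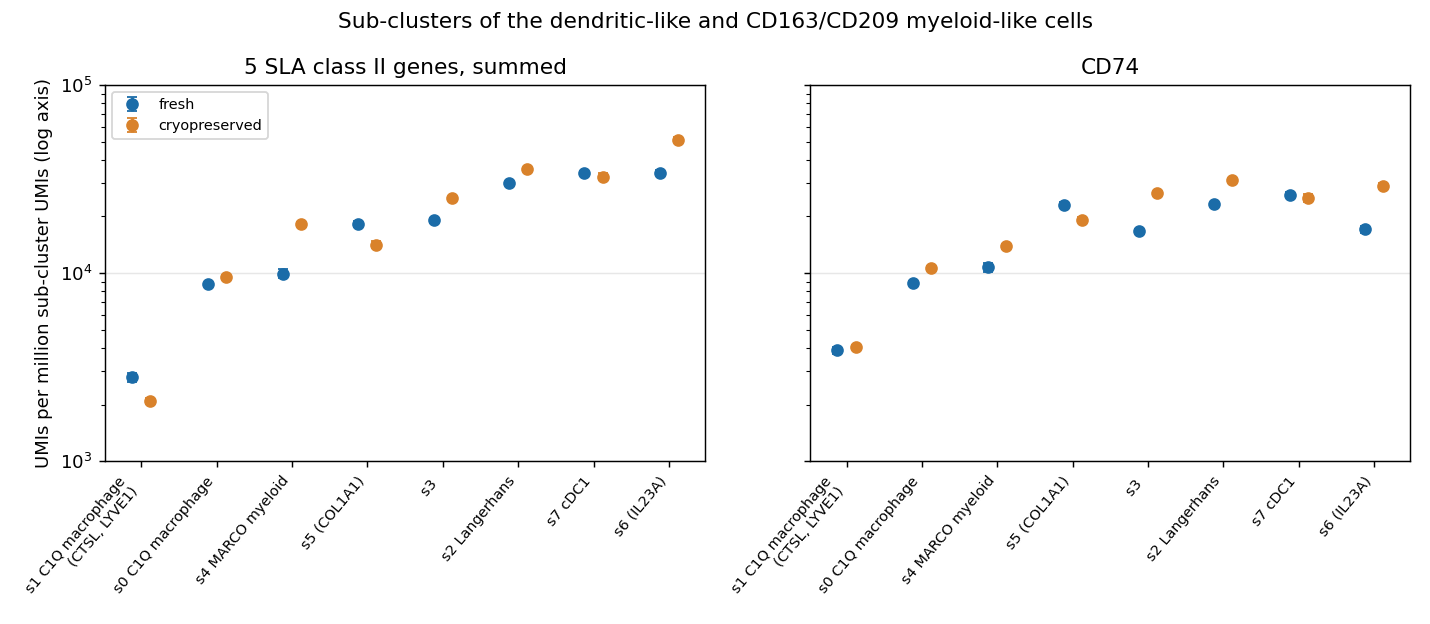
Summed level of the 5 SLA genes (left) and level of CD74 (right) in the 8 sub-clusters of dendritic-like and myeloid-like cells, as CPM on a log axis, with exact 95% Poisson intervals. The sum ran from 2086 CPM in cryopreserved s1 cells to 51082 CPM in cryopreserved s6 cells.

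Between the libraries the class II genes stayed within 2-fold in the 3 classes rich in them. In dendritic-like cells the log2 ratio of the sum, cryopreserved over fresh, was 0.21 (interval 0.19 to 0.22), with 0.10 for SLA-DRA, 0.37 for SLA-DRB1, 0.22 for SLA-DQB1, 0.01 for SLA-DMA and -0.07 for SLA-DMB. In myeloid-like cells the sum gave 0.04 (0.00 to 0.08), with the lowest value for SLA-DMA at -0.34 (-0.63 to -0.05) and the highest for SLA-DQB1 at 0.13 (0.06 to 0.19). In endothelial-like cells it was 0.04 (-0.04 to 0.11), with SLA-DMA at -0.36 (-0.88 to 0.16) and SLA-DMB at -0.37 (-0.92 to 0.17). CD74 was higher in the cryopreserved library by 0.40 (0.38 to 0.42), 0.06 (0.03 to 0.10) and 0.33 (0.28 to 0.38) in these classes.

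Of the members with at least 50 UMIs over both libraries, none differed by 2-fold or more in 5 classes: 0 of 5 in dendritic-like, 0 of 5 in myeloid-like, 0 of 5 in endothelial-like, 0 of 2 in T or NK-like and 0 of 4 in fibroblast-like cells. Over all genes with at least 50 UMIs the share past 2-fold was 4.77% of 5864 genes in dendritic-like, 3.74% of 6582 in myeloid-like, 3.02% of 5621 in endothelial-like, 3.45% of 5503 in T or NK-like and 2.46% of 11847 in fibroblast-like cells. Counts of 0 among at most 5 genes are near these shares and do not set the members apart. The median log2 ratio over all genes was between -0.07 and -0.02 in these 5 classes, and that of the members 0.10, -0.02, -0.12, 0.10 and -0.16 in the same order.

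In 2 of the low classes members were past 2-fold. All 3 that could be counted in keratinocyte-like cells were higher in the cryopreserved library, where 2.98% of 10709 genes passed 2-fold. That share is larger among genes with few UMIs, as these members were. It was 13.7% of 16537 genes with at least 1 UMI in each library and 1.07% of 7758 with at least 200. A share over genes with counts like those of the members was not taken. SLA-DRA had 24 and 79 UMIs with a log2 ratio of 1.26 (0.58 to 1.98), SLA-DRB1 15 and 54 with 1.39 (0.54 to 2.32) and SLA-DQB1 28 and 84 with 1.12 (0.49 to 1.80). Without the 5 cells with most class II UMIs, SLA-DRA had 19 and 52 UMIs with 0.98 (0.20 to 1.82), SLA-DRB1 12 and 21 with 0.34 (-0.75 to 1.495) and SLA-DQB1 14 and 51 with 1.40 (0.52 to 2.36). In SMC-like cells the 1 member that could be counted, SLA-DQB1, was lower in the cryopreserved library with 40 and 11 UMIs and a log2 ratio of -1.86 (-2.97 to -0.87), where 2.21% of 7100 genes passed 2-fold. Among 13817 genes with at least 1 UMI in each library the share was 15.5%. Without the 5 highest cells 4 and 7 of the SLA-DQB1 UMIs were left and the sign turned, to 0.79 (-1.19 to 3.01).

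**Figure D5:**
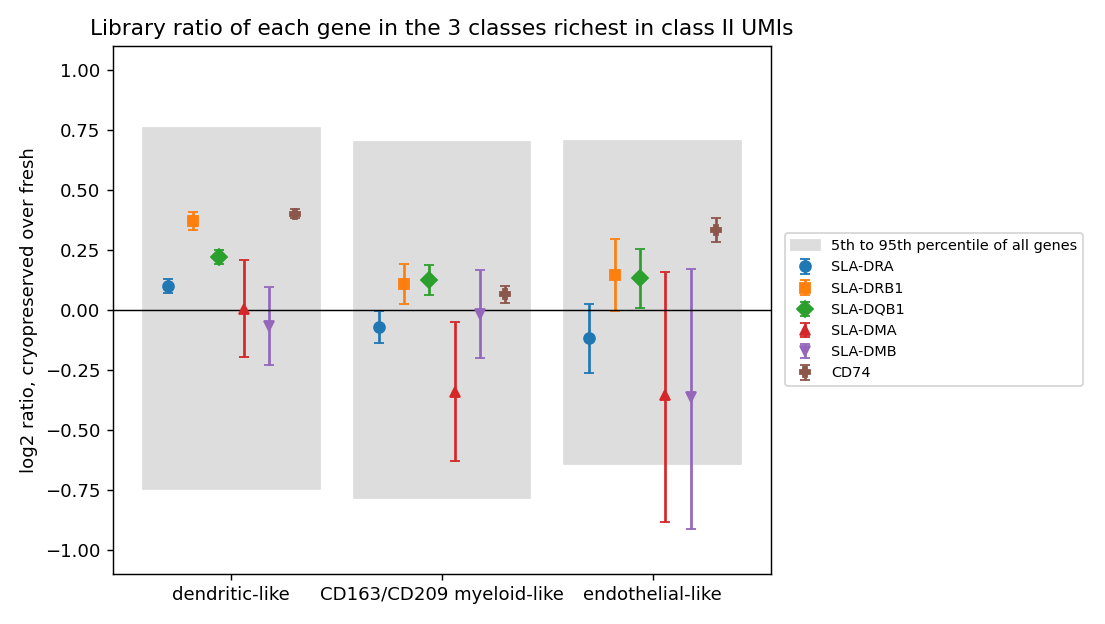
Log2 ratio of each gene, cryopreserved over fresh, in dendritic-like, CD163/CD209 myeloid-like and endothelial-like cells, with exact 95% counting intervals. Grey boxes span the 5th to 95th percentile of all genes with at least 50 UMIs in the class, and all 18 values lie within them.

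Within the myeloid-like class the clusters differed in opposite directions, and their shares of the cells differed too. The larger of its clusters, led by CD209 and C4BPA, had 5709 CPM (5581 to 5838) in 138 fresh cells and 4092 CPM (4001 to 4184) in 231 cryopreserved cells. The smaller, led by ARG1 and MARCO, had 10746 CPM (10174 to 11342) in 13 cells and 18268 CPM (17824 to 18721) in 44 cells. When each cell was given equal weight, the log2 ratio of the class was 0.35. The parts of the cluster levels and of the cell mix in the near equal class level were not worked out. Nor was the part of the s0 and s1 mix in the lower cryopreserved level of the larger cluster. What lies behind these differences was not tested.

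Among the regulators, CIITA had the same order as the members over the 3 rich classes. It had 302 and 234 CPM in dendritic-like, 142 and 64.7 CPM in myeloid-like and 29.95 and 18.5 CPM in endothelial-like cells, and 8 and 6 UMIs in all fibroblast-like cells. Between the libraries its log2 ratio was -0.37 (-0.55 to -0.18) in dendritic-like and -1.14 (-1.45 to -0.82) in myeloid-like cells, while the class II sum in these cells was 0.21 and 0.04. Over the sub-clusters the order was not the same: CIITA had 116 and 89.5 CPM in s3 and 396 and 159 CPM in s4, although s3 had the higher class II level of the pair in both libraries. In s6 it had 63.7 and 530 CPM. RFXANK, a subunit of RFX, went the other way in dendritic-like cells, with 24 and 56 UMIs and a log2 ratio of 1.02 (0.30 to 1.77). Of 8 listed regulators 7 were found and 6 had 50 UMIs in dendritic-like cells, where 1 was 2-fold higher and none 2-fold lower. In myeloid-like cells CIITA was the 1 of 6 that was 2-fold lower, and in endothelial-like cells 0 of 6 passed 2-fold. Over all genes with at least 50 UMIs, 4.77% passed 2-fold in dendritic-like, 3.74% in myeloid-like and 3.02% in endothelial-like cells. Counts of 0 or 1 among so few genes do not set the list apart. The NF-Y subunits NFYA and NFYC had log2 ratios of 0.91 (0.38 to 1.45) and 0.62 (0.03 to 1.23) in endothelial-like cells.

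The thiol reductase gene IFI30 had 978 and 1318 CPM in dendritic-like, 844 and 1104 CPM in myeloid-like and 13.4 and 21.7 CPM in endothelial-like cells. CTSS, the cathepsin that trims CD74, had 563 and 473 CPM, 1678 and 1440 CPM, and 125 and 114 CPM in the same classes. LGMN, an endosomal protease, was high in myeloid-like cells with 3038 and 2882 CPM, against 285 and 222 CPM in dendritic-like cells, and CTSL had 2042 and 2894 CPM against 2 and 1 UMIs. SLA-DOA, a chain of the DO molecule that restrains DM, had 62.5 and 68.8 CPM in dendritic-like and 51.5 and 31.2 CPM in myeloid-like cells. Of 9 listed genes 8 were found, and 0 of 7 in dendritic-like, 0 of 8 in myeloid-like and 0 of 6 in endothelial-like cells passed 2-fold. Over all genes the shares were 4.77%, 3.74% and 3.02% in the same order, so these counts do not set the list apart.

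MARCHF1 encodes a ligase that removes class II from the cell surface, and it was lower in the cryopreserved library in dendritic-like (207 and 118 CPM, log2 ratio -0.82, interval -1.07 to -0.57) and myeloid-like cells (76.3 and 46.4 CPM, -0.72). The costimulators CD86 and CD80 had 877 and 565 CPM and 587 and 468 CPM in dendritic-like cells, with log2 ratios of -0.63 (-0.75 to -0.52) and -0.33 (-0.46 to -0.19). Over this list of turnover and costimulation genes, 5 of 7 were found and 0 of 5 in dendritic-like and 0 of 4 in myeloid-like cells passed 2-fold, with median log2 ratios of -0.33 and -0.19. Among 9 genes of the interferon gamma response, which induces CIITA, 7 could be counted in dendritic-like cells, where GBP1 was 2-fold higher with 20 and 55 UMIs, and 0 of 8 passed 2-fold in endothelial-like cells. Of all genes, 4.77% passed 2-fold in dendritic-like, 3.74% in myeloid-like and 3.02% in endothelial-like cells. The counts of these 2 lists are too small to set them apart.

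Of the class I list, whose products show peptides from within the cell, 7 of 14 genes were found. B2M, the light chain of class I, was lower in the cryopreserved library in all 5 classes, from a log2 ratio of -0.88 (-0.94 to -0.82) in dendritic-like to -0.33 (-0.36 to -0.29) in fibroblast-like cells. Its level was 3793 and 2061 CPM in dendritic-like and 3996 and 2920 CPM in endothelial-like cells. In dendritic-like cells 0 of 5 class I genes passed 2-fold, where 4.77% of all genes did, and the median of the 5 was 0.20.

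Over the 23 clusters with both libraries summed, the genes most like the members were ranked by Pearson's r between log2(CPM + 1) of a gene and the mean over the members, for 11692 genes with at least 200 UMIs. Among the 10 closest were SLA-DOA (r = 0.96), CIITA (0.95), ENSSSCG00000001456 (0.94), GPR84 (0.91), PLCB2 (0.91), C1QA (0.89), CASP1 (0.89), UOX (0.89) and POU2F2 (0.89). CD74 ranked 45. The unnamed feature ENSSSCG00000001456, with 52091 UMIs, has an identifier number between those of SLA-DRB1 and SLA-DQB1 and no symbol in the tables used here. In RefSeq SLA-DQA1 lies between these genes, at chr7:24953472-24959313, and whether the feature is SLA-DQA1 was not tested. Among the members r lay between 0.93 and 0.99, and between each member and CD74 between 0.80 and 0.85. Clusters share libraries and depth, and these correlations are a description without a test.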

How the data were processed

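The authors aligned the reads to Sscrofa11.1 and deposited, for each library, the UMI count of each gene in each barcode, not normalized; their processing notes name Cell Ranger 4.0.0 and STAR 2.5.1b. Cells with over 4500 genes, 30000 UMIs or 10% mitochondrial UMIs (13 genes) were left out. Seurat 5.3.0 was used to integrate both libraries and to cluster them (2000 features, of which 1993 remained without the class II region genes and CD74, 30 dimensions, resolution 0.8). A cluster took the name of the list with the highest mean fold over the median cluster, with at least 3 markers in 10% of cells and raised 2-fold. The median cluster replaced the remaining cells as reference after a first output had been seen. Sub-clusters used 15 dimensions and resolution 0.5. Scrublet (scanpy 1.11.5) called 8 cells in each library, too few for the caller to have worked; the methods describe a scatter gate against doublets. CPM is the summed UMI count of a gene per 1000000 UMIs of the class. Shares and ratios have exact 95% binomial, Poisson or conditional intervals. No test was run, since each condition is 1 library, and the ratio code was tested on simulated counts. Genes were named by rule: the members, the fixed pathway lists with at least 50 UMIs in a class and the 10 genes most like the members, of which 1 is not reported here. Members, lists and markers were chosen with earlier results of these data known. Alternatives used edgeR 4.0.16, DESeq2 1.42.0, other clusterings, cells and weights.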

Additional observations from a re-analysis of the deposited data

How the results depend on the processing

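The main log2 ratio of the summed class II level was 0.27 (-0.10 to 0.65) in T or NK-like and -0.19 (-0.41 to 0.03) in fibroblast-like cells. Those of the 3 rich classes are given above. With edgeR TMM factors the log2 ratio of the summed class II level, cryopreserved over fresh, was 0.18 in dendritic-like and 0.16 in myeloid-like cells, and with DESeq2 size factors it was 0.14 in myeloid-like cells. With each cell given equal weight, the log2 ratio was 0.11 in dendritic-like, 0.35 in myeloid-like, -0.18 in T or NK-like and 0.0417 in fibroblast-like cells, the endothelial-like level was 62.3 times (fresh) and 61.3 times (cryopreserved) the fibroblast-like level, and the dendritic-like level 5.14 and 4.34 times the myeloid-like level. With CD74 in the sum, an alternative added after seeing the data, the log2 ratios were 0.30 in dendritic-like, 0.25 in endothelial-like and 0.23 in fibroblast-like cells, and the class ratios 6.84 and 6.92 (endothelial over fibroblast) and 3.83 and 4.53 (dendritic over myeloid). The planned sum without CD74 is the sum reported. With all deposited barcodes the log2 ratio in myeloid-like cells was -0.16, the endothelial over fibroblast ratio 87.0 in the cryopreserved library and the dendritic over myeloid ratios 3.12 and 3.997. With the class II genes kept among the clustering features, the myeloid-like log2 ratio was -0.0473 and the fresh dendritic over myeloid ratio 4.30.

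Without integration the log2 ratio was -0.0848 in myeloid-like and -0.97 in T or NK-like cells, and the fresh dendritic over myeloid ratio was 4.16. In that clustering 1 dendritic-like cell with 139 class II UMIs fell in the T or NK-like class. Without the cells with the highest Scrublet scores the log2 ratio was -0.0345 in myeloid-like and -0.11 in T or NK-like cells, the endothelial over fibroblast ratios were 118 and 137, and the dendritic over myeloid ratios 4.71 and 5.50. Without the 5 cells with most class II UMIs the log2 ratio was 0.0806 in myeloid-like, 0.12 in endothelial-like and 0.26 in fibroblast-like cells, the endothelial over fibroblast ratios were 129 and 116, and the dendritic over myeloid ratios 5.07 and 5.53. Without cells that had a PTPRC, C1QA or C1QB UMI, also added later, the fibroblast-like log2 ratio was 0.17 and the endothelial over fibroblast ratios were 121 and 114. For the split of macrophages, the cells of s0 and s1 were also clustered within each library alone. The remaining cells then had 0.57 times the class II level of the cluster with most LYVE1 in the fresh library, a reversed order. In the cryopreserved library they had 7.97 times its level. These groups are not s0 and s1: the fresh cluster held 33 cells of s0, and 81 of the 188 remaining cryopreserved cells came from s1. With cells divided at the median CTSL level, the lower part had 2.65 and 3.97 times the level of the upper part, but CTSL is itself a leading gene of s1. The causes of these differences were not tested.

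In every alternative run for them, endothelial-like cells stayed above fibroblast-like and dendritic-like above myeloid-like cells. The log2 ratio of the sum was less stable, and its sign turned in some alternatives in myeloid-like, T or NK-like and fibroblast-like cells. Of 135 recomputed log2 ratios of single members, 117 kept their sign and 107 stayed within the counting interval, over a range of -0.57 to 0.47. In the dendritic-, myeloid-, endothelial-, T or NK- and fibroblast-like classes the share of all genes past 2-fold was between 13.2% and 19.1% with at least 1 UMI in each library and between 0.805% and 2.28% with at least 200 UMIs. No paired analysis was possible because each condition is 1 library. Leaving out a replicate was not possible for the same reason, and differences between animals, preparations and freezing cannot be told apart.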
